A study of Homo sapiens with 24 samples.

Results

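Polyamine metabolism was followed through 10 genes in 2 human osteosarcoma cell lines treated with THZ2, a covalent inhibitor of the transcriptional kinase CDK7. The genes are SAT1, SMOX and PAOX of catabolism, ODC1, AMD1, SRM and SMS of synthesis, and the regulators OAZ1, OAZ2 and AZIN1. They were taken as a pathway around SAT1, which was chosen by its measured rise against DMSO, among the largest in both lines. The SAT1 values below are therefore a description and carry no test. All probe sets that the array's annotation assigns to one of these genes alone were taken, which gave 35 of the 44994 probe sets that name 1 gene. Of these 35, 34 passed the filter on low values, 3 of SAT1 and 31 of the other 9 genes. The remaining one, 11761617_at of SMS, lay under the filter in all 8 groups.

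Total RNA was measured on 24 Affymetrix PrimeView expression arrays. U2-OS and SJSA-1, both established lines from osteosarcoma, a bone tumour, each received either the solvent DMSO or 25, 100 or 400 nM THZ2, and RNA was taken after 6 h, with 3 arrays in each of the 8 groups. All groups of both lines were grown in the same serum-supplemented medium, and no genetic change was introduced. The labels number the arrays within a group but do not say that they came from separate cultures, so p-values measure only the spread between these samples, which may be technical, and each line stands for itself alone.

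Polyamines (putrescine, spermidine and spermine) are small positively charged molecules that bind nucleic acids and are needed for cell growth. ODC1 makes putrescine from ornithine, AMD1 makes the decarboxylated S-adenosylmethionine that donates aminopropyl groups, and SRM and SMS use it to make spermidine and spermine. SAT1 acetylates spermidine and spermine, which marks them for export or for oxidation by PAOX, SMOX oxidises spermine directly, and the antizymes OAZ1 and OAZ2 bind ODC1 and send it to the proteasome unless AZIN1 captures them.

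Values are deposited intensities on a linear scale, and log2 changes are differences of the mean log2 of intensity plus 16. The arrays fell into 3 sets by their exactly repeated values, which were taken as normalized apart: 9 U2-OS arrays (DMSO, 25 and 100 nM), the 3 U2-OS arrays at 400 nM, and the 12 of SJSA-1. For U2-OS the dose of 400 nM and its separate normalization therefore cannot be told apart, and levels are not compared between the lines. Taken as log2, 100% of the SJSA-1 intensities had been rounded to 2 decimals. In U2-OS 3.47% to 4.06% per array lay at such a step. Rounding can by itself make values on different arrays equal. The repeats thus cannot show that the 12 SJSA-1 arrays were normalized together, which the SJSA-1 dose comparisons take as given. Of 9 osteoblast markers, 7 lay above the filter intensity of 12.7 in U2-OS with DMSO and 6 in SJSA-1, with IBSP below it in every group and COL1A2 at 8.6 in U2-OS. The treatment protocol in the labels names TRIzol and these cells for the extraction, whereas the extraction protocol names a kit and another tissue. Among nervous tissue markers 7 of 9 lay above the filter in U2-OS with DMSO and 4 of 9 in SJSA-1, with AQP4 below it in every group, among blood markers 2 of 5 in each line, with PTPRC and LYZ below it in every group, and among epithelial markers 5 of 5 and 4 of 5. The filter intensity is the 30th percentile of the deposited values, so most values on the arrays lie above it. Summed over the list on each array, the nervous markers spanned intensities of 674 to 1002 across the U2-OS arrays and 145 to 206 across the SJSA-1 arrays. NEFL alone had means of 418 in U2-OS and 2.85 in SJSA-1 with DMSO. The blood markers spanned 115 to 170 and 86.5 to 143, and the epithelial markers 139 to 291 and 93.4 to 175. The part of these markers in the results was not tested.

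The bases upstream of the start site are shown for 3 genes that the results turn on: SAT1, the gene around which the pathway was taken, AMD1, which fell in both lines, and OAZ1, whose changes were small and upward before rescaling. They are from RefSeq (GRCh38.p14), each with 250 bases ending just before an annotated start, at chrX:23782923-23783172 (plus strand) for SAT1, chr6:110874535-110874784 (plus strand), one of 3 such windows, for AMD1, and chr19:2269236-2269485 (plus strand) for OAZ1. Capitals mark matches on either strand to any of 7 searched motifs, of which only CCAAT and GGGCGG matched in these 3 windows, a match on the minus strand reading ATTGG or CCGCCC.
SAT1: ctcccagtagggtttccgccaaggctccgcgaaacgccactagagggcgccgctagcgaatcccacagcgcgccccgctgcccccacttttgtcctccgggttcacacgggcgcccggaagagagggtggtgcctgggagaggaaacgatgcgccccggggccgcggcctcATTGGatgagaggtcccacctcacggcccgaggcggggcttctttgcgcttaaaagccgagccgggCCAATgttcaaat
AMD1: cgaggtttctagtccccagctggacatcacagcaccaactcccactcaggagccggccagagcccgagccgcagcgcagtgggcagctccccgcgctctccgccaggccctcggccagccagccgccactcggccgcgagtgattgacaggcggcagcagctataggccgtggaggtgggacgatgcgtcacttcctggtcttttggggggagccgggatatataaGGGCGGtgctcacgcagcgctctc
OAZ1: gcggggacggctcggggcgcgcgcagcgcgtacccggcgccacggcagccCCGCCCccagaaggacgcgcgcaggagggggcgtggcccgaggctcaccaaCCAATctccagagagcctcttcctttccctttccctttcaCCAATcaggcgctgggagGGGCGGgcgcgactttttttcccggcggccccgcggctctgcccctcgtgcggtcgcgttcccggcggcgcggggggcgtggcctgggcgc

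The SAT1 window held 2 CCAAT matches, on the minus strand at -79 to -75 and on the plus strand at -13 to -9 from the start, and no GGGCGG. The AMD1 window held 1 GGGCGG at -24 to -19, and the OAZ1 window held 2 CCAAT and 2 GGGCGG matches. Of 35116 windows of the same length, 32.0% held CCAAT and 42.6% held GGGCGG. The other motifs searched on both strands were CACGTG (in 6.34% of all windows), TATAAA (10.7%), TGACGTCA (1.65%), TGANTCA (6.57%) and TGACNNNGC (10.9%), the letters of which did not occur in these 3 windows. A match describes the sequence and is no site of binding. The base composition was 66.4% G and C for SAT1, 67.2% for AMD1 and 75.2% for OAZ1.

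SAT1 intensity at 100 nM THZ2 was several times that with DMSO in both lines on its brightest probe set, 11743036_s_at. In U2-OS this probe set read 63.3, 73.0 and 70.7 on the DMSO arrays and 78.3, 75.8 and 78.3 at 25 nM. At the higher doses it read 405, 413 and 419 at 100 nM and 319, 335 and 335 at 400 nM. The DMSO and 25 nM arrays of U2-OS lay close together without overlap, and the arrays at 100 and 400 nM all lay far above them. The U2-OS means were 69.0 ± 5.04 with DMSO, 77.5 ± 1.48 at 25 nM, 413 ± 7.24 at 100 nM and 330 ± 9.52 at 400 nM (SD, n = 3). The ratio to DMSO was 1.12 at 25 nM, 5.98 at 100 nM and 4.78 at 400 nM.

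On its brightest probe set SAT1 showed the same order of doses in SJSA-1, from a DMSO level of its own. In U2-OS the order of 100 and 400 nM rests on arrays that were normalized apart. For SJSA-1 a shared normalization was taken as given. On 11743036_s_at the SJSA-1 arrays read 184, 163 and 190 with DMSO and 252, 242 and 229 at 25 nM. They read 1060, 929 and 969 at 100 nM and 600, 553 and 605 at 400 nM. No array of one SJSA-1 group overlapped another group, and the order was DMSO, 25 nM, 400 nM and 100 nM from low to high. The means were 179 ± 14.0, 241 ± 11.7, 986 ± 67.1 and 586 ± 29.0 for DMSO, 25, 100 and 400 nM, which is 1.35, 5.51 and 3.28 times DMSO (SD, n = 3).

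**Figure D1:**
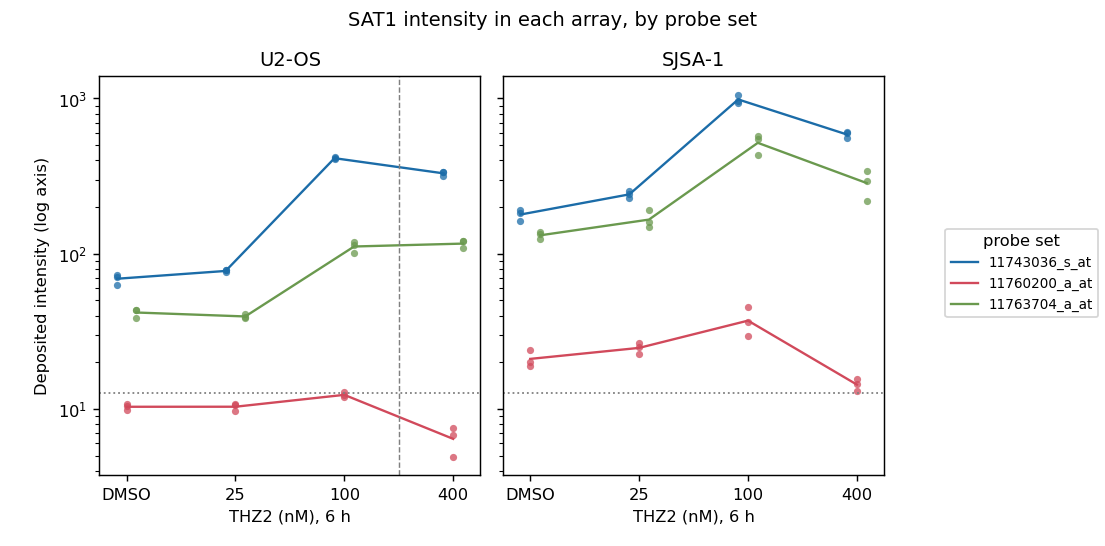
Intensity (log axis) of the 3 SAT1 probe sets by dose of THZ2 in U2-OS and SJSA-1, where dots are single arrays, short lines are group means of 3 arrays, the dotted line is the filter intensity of 12.7 and the dashed line sets off the U2-OS 400 nM arrays, which were normalized apart. The 2 brighter probe sets are high at 100 and 400 nM in both lines, and 11760200_a_at stays below the filter on average in all 4 U2-OS groups.

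The second SAT1 probe set, 11763704_a_at, had the same direction at 100 and 400 nM with smaller ratios. In U2-OS it read 43.6, 43.3 and 38.6 with DMSO, 102, 113 and 119 at 100 nM, and 108, 120 and 120 at 400 nM. In SJSA-1 it read 137, 124 and 133 with DMSO, 572, 549 and 434 at 100 nM, and 296, 220 and 340 at 400 nM. All arrays at these doses lay above all DMSO arrays of their line, whereas at 25 nM the U2-OS arrays (38.6, 40.9 and 38.9) overlapped DMSO and the SJSA-1 arrays (190, 160 and 148) lay above it. Its U2-OS ratios to DMSO were 2.66 at 100 nM and 2.78 at 400 nM, and its SJSA-1 ratios 3.94 and 2.17. At 400 nM the U2-OS mean of this probe set was not below that at 100 nM (116 ± 6.87 against 111 ± 8.66), unlike on the brightest one.

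The third SAT1 probe set, 11760200_a_at, was dim and did not share the pattern at 400 nM. In U2-OS its means of 10.3, 10.3, 12.3 and 6.42 for DMSO, 25, 100 and 400 nM all lay under the filter intensity. In SJSA-1 it read 24.1, 19.0 and 19.97 with DMSO, 36.3, 45.6 and 29.4 at 100 nM and 15.7, 13 and 14.4 at 400 nM. Its SJSA-1 arrays at 100 nM were thus all above DMSO and those at 400 nM all below. On the log2 scale its SJSA-1 differences from DMSO were 0.51 ± 0.07 at 100 nM and -0.28 ± 0.07 at 400 nM (SE).

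On the log2 scale the brightest SAT1 probe set differed from DMSO by 0.14, 2.34 and 2.02 at 25, 100 and 400 nM in U2-OS, and by 0.40, 2.36 and 1.63 in SJSA-1. By size of rise it ranked 898, 4 and 18 among 16173 genes in U2-OS, and 149, 5 and 4 in SJSA-1, each gene being represented by its brightest probe set over all arrays. The step from 25 to 100 nM came to 2.20 for U2-OS. For SJSA-1 it came to 1.96, followed by -0.73 from 100 to 400 nM. The other SAT1 probe sets stepped by -0.84 (11763704_a_at) and -0.80 (11760200_a_at) from 100 to 400 nM in SJSA-1. The SJSA-1 effect of 100 nM minus the U2-OS effect was 0.03 on the brightest SAT1 probe set, 0.71 on 11763704_a_at and 0.41 on 11760200_a_at.

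The size of these SAT1 differences depended on how arrays were scaled. Control RNAs with poly-A tails, added to the samples as spike-ins, lay higher with THZ2 than with DMSO, by a mean log2 difference of 0.38 in U2-OS at 100 nM and 0.33 at 400 nM, and by 0.45 and 0.97 in SJSA-1 (12 probe sets). At 25 nM the spike-in differences were 0.04 in U2-OS and 0.07 in SJSA-1. Centring each array on the spike-ins gave SAT1 differences of 1.96 and 1.69 in U2-OS and 1.91 and 0.66 in SJSA-1 on the brightest probe set at 100 and 400 nM. On 11763704_a_at they were 0.76 and 0.86 in U2-OS and 1.40 and 0.05 in SJSA-1, so that the SJSA-1 difference at 400 nM was nearly lost, and with a wider set of 24 spike-in probe sets, an alternative added after the data were seen, it was -0.06. On 11760200_a_at the values were -0.27 and -0.57 in U2-OS and 0.06 and -1.25 in SJSA-1, of which that at 100 nM in U2-OS had been 0.11 as deposited. Fewer cells and less RNA per cell cannot be told apart by such a scaling, and whether spike-ins were added per cell or per amount of RNA is not given in the sources used here.

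The other 9 genes were tested with limma across all 37950 probe sets that passed the filter, with Benjamini-Hochberg adjusted p-values at 0.05, and their 31 probe sets are counted against the share of all tested probe sets that passed in the same comparison. At 25 nM in U2-OS 0 of the 31 passed, 0 of them at an unadjusted limma p under 0.05, where 0.0632% of all probe sets passed (0.0264% rose and 0.0369% fell). At 100 nM in U2-OS 5 rose and 1 fell, where 36.5% of all probe sets passed (17.6% rose and 18.9% fell), and 3 passed without either replicate 2 or replicate 3 of that dose. At 400 nM in U2-OS 15 rose and 8 fell, where 71% of all passed (48.4% rose and 22.7% fell). The median change of the 31 was 0.04 at 100 nM and 0.15 at 400 nM in U2-OS, against 0.06 and 0.16 over all tested probe sets. The share called among the members lay below the background at 100 nM and near it at 400 nM.

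In SJSA-1 at 25 nM 0 of the 31 polyamine probe sets rose and 2 fell, where 6.84% of all passed (1.79% rose and 5.06% fell). Without DMSO replicate 1 5 passed at this dose, and 0 passed without DMSO replicate 2 or 3 or without replicate 2 or 3 at 25 nM. At 100 nM in SJSA-1 10 rose and 8 fell, where 47.7% of all passed (25.2% rose and 22.5% fell). At 400 nM in SJSA-1 9 rose and 9 fell, where 59.5% of all passed (36% rose and 23.4% fell). The medians of the 31 in SJSA-1 were 0.03, 0.10 and 0.09, against 0.01, 0.06 and 0.08 over all tested probe sets. By probe set the share called among the members lay near the background at 25 and 400 nM and above it at 100 nM in SJSA-1. Of the calls at 100 nM, 6 falls were of AMD1 and 6 rises of OAZ1. With 1 probe set per gene 3 of the 9 genes passed at 100 nM in SJSA-1. There 3955 of all 16173 tested genes rose and 4035 fell, so the share by gene was not above the background. Probe sets of 1 gene read the same transcripts, so the 31 are not independent. With arrays centred on the spike-ins the counts of rising and falling probe sets became 0 and 1 at 100 nM and 0 and 7 at 400 nM in U2-OS, and 0 and 8 at 100 nM and 0 and 31 at 400 nM in SJSA-1. Over all 37950 tested probe sets this scaling gave 79 rises and 5152 falls at 100 nM and 851 and 5744 at 400 nM in U2-OS. In SJSA-1 it gave 129 and 7907 at 100 nM and 11 and 34716 at 400 nM, so that the 31 falls lay near the array as a whole. With arrays centred on 186 ribosomal protein probe sets the counts of the 31 were 2 and 1 at 100 nM and 8 and 8 at 400 nM in U2-OS, and 5 and 11 at 100 nM and 1 and 10 at 400 nM in SJSA-1. Over all tested probe sets they were 4367 and 7115, 12782 and 10916, 3950 and 10468, and 3997 and 12220 in the same order.

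**Figure D2:**
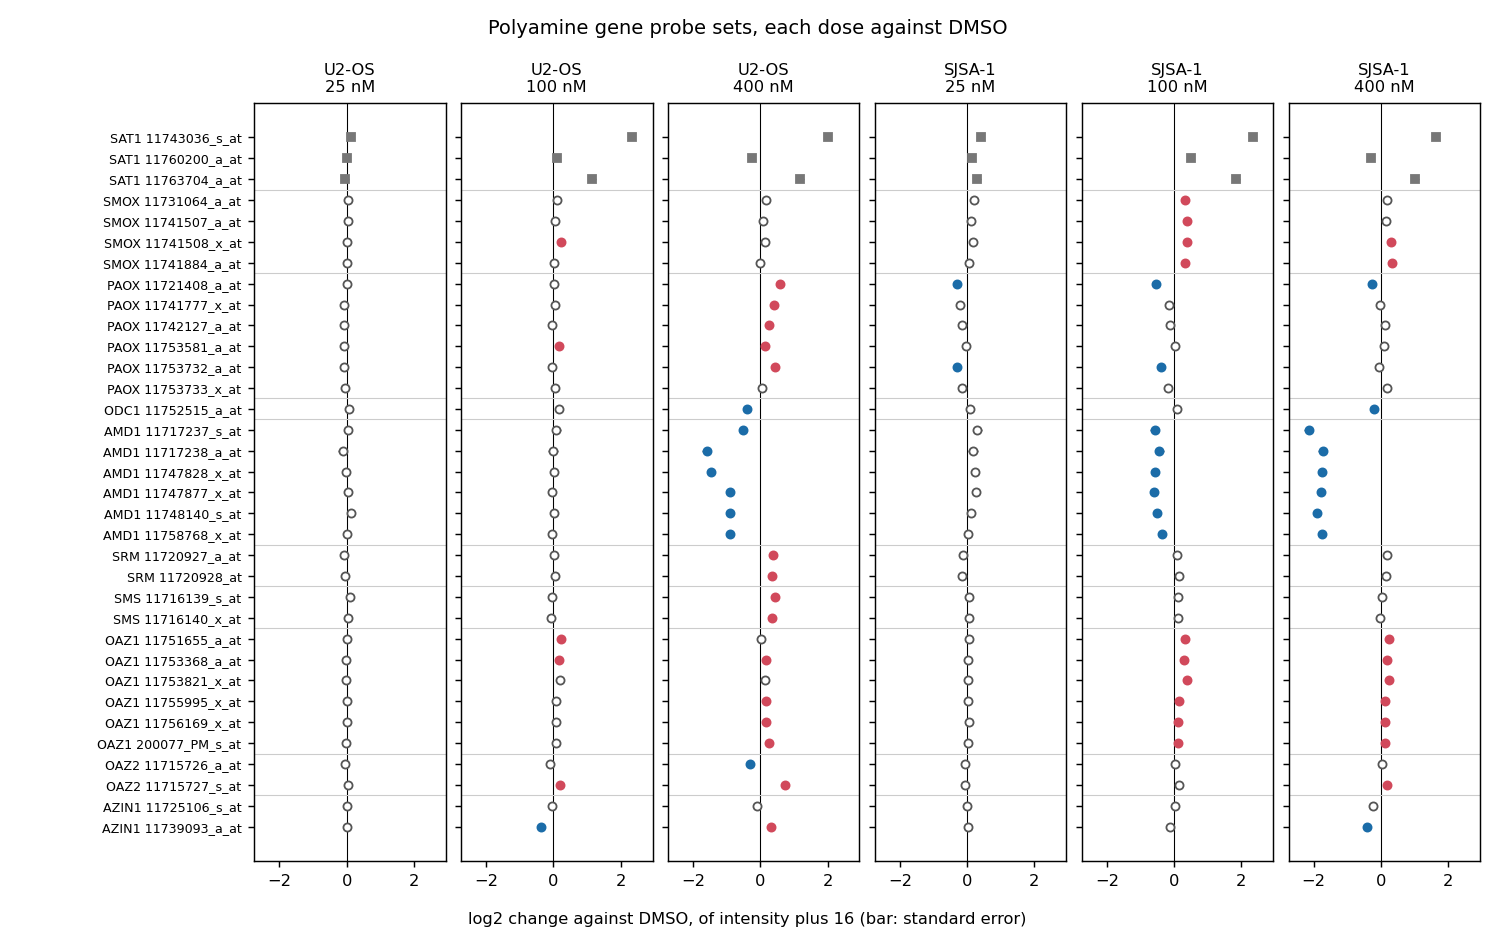
Log2 change against DMSO of each tested probe set of the 10 polyamine genes, 1 panel per dose and line; filled red points rose and filled blue points fell in limma at an adjusted p under 0.05, open points did not pass, grey squares are SAT1, which was not tested, and standard error bars are mostly hidden by the points. AMD1 lies lowest at 400 nM in both lines (-0.51 to -1.60 in U2-OS and -1.74 to -2.15 in SJSA-1), and the small rises of OAZ1 and SMOX in SJSA-1 turn below 0 when arrays are centred on the spike-ins.

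The oxidases of catabolism changed by at most 0.58 on the log2 scale against DMSO. SMOX, the spermine oxidase, rose on all 4 of its probe sets at 100 nM in SJSA-1, by 0.31 to 0.39, and lay at -0.07 to -0.14 there with the spike-in scaling. Its brightest probe set, 11731064_a_at, read 55.7, 64.4 and 75.1 with DMSO and 89.3, 91.1 and 75.1 at 100 nM in SJSA-1. In these rounded values the lowest array at 100 nM equalled the highest with DMSO, so the groups were not fully apart. The change was 0.32 ± 0.09 (SE, limma adjusted p = 0.00574). At 400 nM in SJSA-1 2 of the 4 SMOX probe sets rose, by 0.29 and 0.32, both below 0 with the spike-in scaling. In U2-OS 1 of 4 rose at 100 nM (11741508_x_at, by 0.21, and -0.17 with the spike-in scaling) and 0 of 4 passed at 400 nM, where 71% of all probe sets passed.

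PAOX, the peroxisomal oxidase of acetylated polyamines, fell on 2 of its 6 probe sets at 100 nM in SJSA-1. Its U2-OS rises lay mainly at 400 nM, where dose and normalization cannot be told apart. In U2-OS at 100 nM the same 2 probe sets had means of 10.6 and 24.1, against 10.1 and 25.0 with DMSO. The largest PAOX changes were on 11721408_a_at. It read 24.4, 29.9 and 28.6 with DMSO, 22.0, 17.4 and 17.9 at 25 nM and 15.3, 12.4 and 13.9 at 100 nM in SJSA-1. Each of these SJSA-1 groups lay wholly below the one before it. At 400 nM its SJSA-1 arrays read 17.03, 28.2 and 16.3, of which the second lay among the DMSO values. In U2-OS the same PAOX probe set read 10.3, 10.3 and 9.77 with DMSO, under the filter intensity, and 22.3, 22.0 and 24.9 at 400 nM, with no overlap.

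By test, 2 of the 6 PAOX probe sets fell at 25 nM in SJSA-1, by -0.31 (11721408_a_at) and -0.30 (11753732_a_at). The same 2 PAOX probe sets fell at 100 nM, by -0.55 ± 0.08 and -0.38 ± 0.09 (SE), and both fell with the spike-in scaling too, by -1.0 and -0.84. At 400 nM in SJSA-1 1 of 6 fell (-0.27 ± 0.08, limma adjusted p = 0.00638). In U2-OS 5 of the 6 PAOX probe sets rose at 400 nM, by 0.13 to 0.58, and 1 rose at 100 nM (11753581_a_at, by 0.17). PAOX 11753581_a_at passed the filter only through these U2-OS groups (means of 15.2 and 14.2 at 100 and 400 nM, against 11.7 with DMSO), so its calls at both doses, counted here and among the 31, carry no weight, and its arrays at 100 nM overlapped DMSO. PAOX 11721408_a_at passed the filter in U2-OS only at 400 nM. None of these U2-OS rises passed with the spike-in scaling, under which 11753581_a_at lay at -0.21 at both doses and 11742127_a_at at -0.06 at 400 nM. The brightest PAOX probe set, 11742127_a_at, had U2-OS means of 43.4 ± 1.51 with DMSO and 55.7 ± 2.35 at 400 nM (SD, n = 3).

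Of the synthetic enzymes, AMD1 fell most, on all 6 of its probe sets at 400 nM in both lines and on all 6 already at 100 nM in SJSA-1. AMD1 encodes S-adenosylmethionine decarboxylase, whose product both aminopropyl transferases need. Its brightest probe set, 11747877_x_at, read 1160, 942 and 1017 with DMSO and 1323, 1218 and 1201 at 25 nM in SJSA-1. It read 588, 734 and 709 at 100 nM and 278, 272 and 326 at 400 nM in SJSA-1. All 25 nM arrays lay above DMSO, all 100 nM arrays below it and all 400 nM arrays lower again. In U2-OS it read 732, 806 and 773 with DMSO, 668, 878 and 729 at 100 nM and 346, 459 and 419 at 400 nM, so that the 100 nM arrays overlapped DMSO and the 400 nM arrays lay below.

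**Figure D3:**
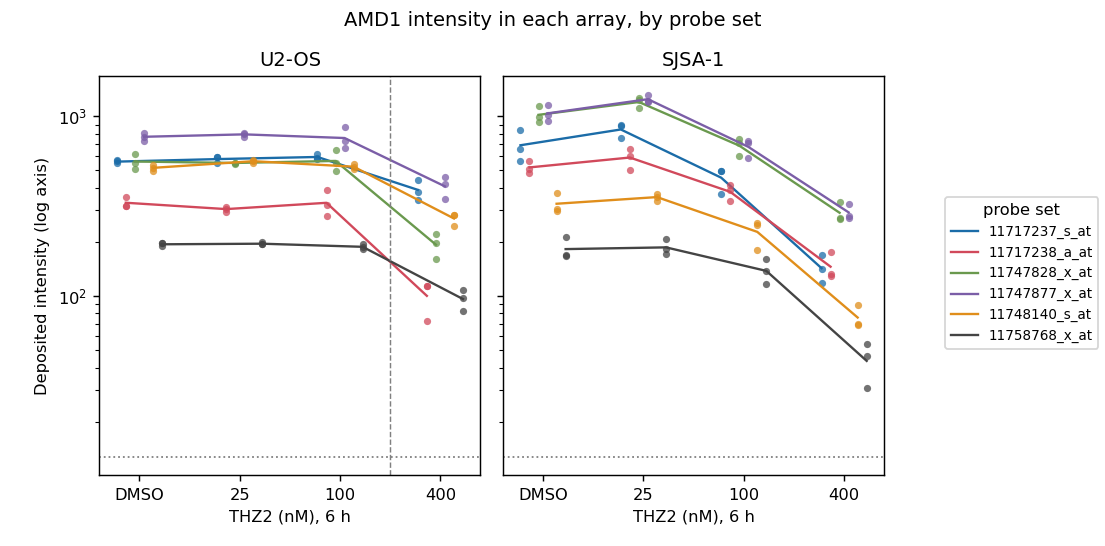
Intensity (log axis) of the 6 AMD1 probe sets by dose of THZ2 in U2-OS and SJSA-1, where dots are single arrays, short lines are group means of 3 arrays, the dotted line is the filter intensity of 12.7 and the dashed line sets off the U2-OS 400 nM arrays, normalized apart. In SJSA-1 every probe set is lower at 100 nM and lower again at 400 nM; in U2-OS every probe set is lower at 400 nM, and at 25 and 100 nM 0 of 6 passed the test.

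The SJSA-1 falls of AMD1 at 100 nM ranged from -0.37 ± 0.12 (11758768_x_at, limma adjusted p = 0.0166) to -0.61 ± 0.11 (11747877_x_at, 3.63e-05). At 400 nM in SJSA-1 they ranged from -1.74 ± 0.14 (11717238_a_at) to -2.15 ± 0.13 (11717237_s_at). In U2-OS at 100 nM 0 of 6 AMD1 probe sets passed, with changes from -0.04 to 0.08. At 400 nM in U2-OS all 6 fell, by -0.51 ± 0.13 (11717237_s_at) to -1.60 ± 0.14 (11717238_a_at), so the probe set that fell most in SJSA-1 fell least in U2-OS. At 25 nM 0 of 6 passed in either line, although the SJSA-1 changes of all 6 AMD1 probe sets were above 0 (0.03 to 0.30).

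The AMD1 falls kept their direction under each of the 5 other scalings on all 6 probe sets at 400 nM in both lines and at 100 nM in SJSA-1, and all passed but 11758768_x_at at 100 nM, with -0.27 (limma adjusted p = 0.0542) after joint quantile normalization. With the spike-in scaling they ranged from -0.82 to -1.06 at 100 nM and from -2.7 to -3.11 at 400 nM in SJSA-1, and from -0.84 to -1.93 at 400 nM in U2-OS. Under that scaling 34716 of all 37950 tested probe sets fell at 400 nM in SJSA-1. From dose to dose in SJSA-1, all 6 AMD1 probe sets fell from 25 to 100 nM (-0.40 to -0.88) and again from 100 to 400 nM (-1.17 to -1.57). AMD1 supplied 6 of the 7 members that fell from 100 to 400 nM in SJSA-1, where 4 probe sets, all of PAOX, rose and 23.8% of all probe sets passed (11.2% rose and 12.6% fell). For this step 0 rose and 10 fell when arrays were centred on the spike-ins, where 2 of all probe sets rose and 5640 fell. With the ribosomal scaling 2 rose and 8 fell (2307 and 5371 of all). When only the groups compared were fitted 0 rose and 6 fell (1305 and 3073 of all). The 4 PAOX rises thus did not hold in full under any of these.

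ODC1, which makes putrescine and is covered by 1 probe set, 11752515_a_at, was lower at 400 nM in both lines. In U2-OS it read 1939, 1926 and 1849 with DMSO, 2099, 2082 and 2194 at 100 nM and 1368, 1475 and 1515 at 400 nM. The U2-OS arrays at 100 nM were all above DMSO without passing the test (0.16 ± 0.08, limma adjusted p = 0.140), and those at 400 nM were all below it (-0.39 ± 0.08, 1.96e-04). In SJSA-1 it read 1226, 1409 and 1113 with DMSO, 1333, 1448 and 1235 at 100 nM and 1184, 989 and 1046 at 400 nM. The SJSA-1 arrays of ODC1 overlapped DMSO at both doses, the change at 400 nM being -0.21 ± 0.08 (limma adjusted p = 0.0302) and that from 100 to 400 nM -0.32. Centred on the spike-ins, ODC1 lay at -0.22 and -0.72 in U2-OS and at -0.35 and -1.18 in SJSA-1 at 100 and 400 nM, of which the 400 nM values passed. In SJSA-1 at 400 nM 34716 of all 37950 tested probe sets passed as falls with this scaling.

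SRM and SMS, the synthases of spermidine and spermine, passed against DMSO at 400 nM in U2-OS and in no other comparison with DMSO as deposited, a pattern that the spike-in scaling turned round. There SRM rose by 0.37 ± 0.09 on 11720927_a_at, from 1579, 1553 and 1624 with DMSO to 1973, 2062 and 2109, without overlap. SMS rose by 0.35 ± 0.06 on 11716140_x_at, from 1201, 1221 and 1223 to 1529, 1551 and 1567, also without overlap. Centred on the spike-ins these values were 0.03 for SRM and 0.01 for SMS and did not pass, and with 24 spike-in probe sets they were -0.04 and -0.06. In SJSA-1 the SRM changes at 100 and 400 nM were 0.10 to 0.18 and the SMS changes -0.01 to 0.13, and 0 of these 4 probe sets passed. When centred on the spike-ins, all 4 passed as falls at 400 nM in SJSA-1, at -0.79 and -0.81 for SRM and -0.94 and -0.98 for SMS. There 34716 of all 37950 tested probe sets passed as falls, so these calls are not particular to SRM and SMS. SRM also rose from 25 to 100 nM in SJSA-1 on 11720928_at, by 0.30 (limma adjusted p = 0.0168).

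OAZ1, the main antizyme, rose by small amounts on all 6 of its probe sets in SJSA-1, by 0.10 to 0.39 at 100 nM and 0.12 to 0.25 at 400 nM, all of which turned negative with the spike-in scaling. On its brightest probe set, 11756169_x_at, the SJSA-1 arrays read 6427, 6608 and 6794 with DMSO, 6889, 7181 and 7231 at 100 nM and 7281, 7332 and 6985 at 400 nM. Both treated groups lay above DMSO without overlap, by 0.10 ± 0.03 and 0.12 ± 0.03 (SE). Under the spike-in scaling the 6 OAZ1 values in SJSA-1 were -0.06 to -0.35 at 100 nM, none of which passed, and -0.71 to -0.84 at 400 nM, all of which passed as falls. At 400 nM in SJSA-1 34716 of all 37950 tested probe sets passed as falls under this scaling. With the ribosomal scaling the OAZ1 values were 0.00 to 0.29 at 100 nM and -0.03 to 0.10 at 400 nM.

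In U2-OS OAZ1 rose on 2 of 6 probe sets at 100 nM (11751655_a_at by 0.23 and 11753368_a_at by 0.18) and on 4 of 6 at 400 nM, by 0.16 to 0.25, and both sets of values were below 0 with the spike-in scaling. On 11756169_x_at the U2-OS arrays read 5694, 5715 and 5831 with DMSO, 6079, 5994 and 6173 at 100 nM and 6353, 6490 and 6467 at 400 nM. These groups did not overlap, yet the 100 nM change of 0.08 did not pass (limma adjusted p = 0.0688), while that at 400 nM was 0.16 ± 0.03 (1.91e-04). The test used a spread shared by both lines, and group SDs on this probe set were 13.2 to 89.5 in U2-OS and 183 to 244 in SJSA-1.

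OAZ2, the second antizyme, split by probe set at 400 nM in U2-OS. There 11715727_s_at rose by 0.73 ± 0.08, from 394, 428 and 400 with DMSO to 631, 712 and 715, while 11715726_a_at fell by -0.32 ± 0.08, from 230, 226 and 218 to 168, 185 and 177. Neither pair of groups overlapped, and with the spike-in scaling the values were 0.40 and -0.65 and did not pass. OAZ2 also rose on 11715727_s_at at 100 nM in U2-OS, by 0.20 (limma adjusted p = 0.0450), and at 400 nM in SJSA-1, by 0.19 (0.0314), both of them negative (-0.18 and -0.77) with the spike-in scaling.

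AZIN1, the inhibitor of the antizymes, also differed between its 2 probe sets. On 11739093_a_at it read 268, 299 and 276 with DMSO, 205, 213 and 216 at 100 nM and 319, 369 and 369 at 400 nM in U2-OS. The U2-OS arrays at 100 nM were thus all lower (-0.38 ± 0.11, limma adjusted p = 0.00722) and those at 400 nM all higher (0.31 ± 0.11, 0.0139), the latter becoming -0.02 with the spike-in scaling. In SJSA-1 this AZIN1 probe set fell at 400 nM (-0.41 ± 0.11, limma adjusted p = 0.00242), with 803, 739 and 596 for DMSO overlapping 468, 498 and 630. The other AZIN1 probe set, 11725106_s_at, did not pass in any comparison with DMSO, with changes between -0.23 and 0.02 at 100 and 400 nM as deposited. Both AZIN1 probe sets passed as falls at 400 nM in SJSA-1 when centred on the spike-ins, 11725106_s_at at -1.19 and 11739093_a_at at -1.38. So did 34716 of all 37950 tested probe sets.

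The effect of 100 nM was set against itself in the other line, as the difference SJSA-1 minus U2-OS. Of the 31 polyamine probe sets 1 was higher and 6 were lower in this difference, where 15.5% of all probe sets passed (6.9% higher and 8.55% lower). The 6 were 4 of AMD1, at -0.52 to -0.66, and 2 of PAOX, at -0.57 and -0.35. The 1 was SMOX 11741884_a_at, at 0.29 ± 0.08 (limma adjusted p = 0.0160). Without the SJSA-1 100 nM replicate 1 only 2 of the 31 passed, both lower. With the spike-in scaling none of the 31 passed, where 22 of all probe sets were higher and 54 lower. In the difference at 25 nM 0 of 31 passed in limma, where 0.904% of all passed (0.235% higher and 0.669% lower), with 1 at an unadjusted p under 0.05. The 400 nM effects were not set against each other, because of the separate normalization of the U2-OS arrays.

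From 25 to 100 nM in U2-OS 5 of the 31 probe sets rose and 1 fell, where 40.5% of all passed (20.8% rose and 19.7% fell). Over the same step in SJSA-1 9 rose and 7 fell, where 40.9% passed (20.6% rose and 20.3% fell), but without the SJSA-1 100 nM replicate 1 only 10 in all passed. The 7 that fell in SJSA-1 included all 6 of AMD1, and the 9 that rose included 5 of OAZ1. With the spike-in scaling the counts of rises and falls were 0 and 0 in U2-OS and 0 and 6 in SJSA-1. Over all tested probe sets they were 73 and 4741 in U2-OS and 60 and 5772 in SJSA-1.

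**Figure D4:**
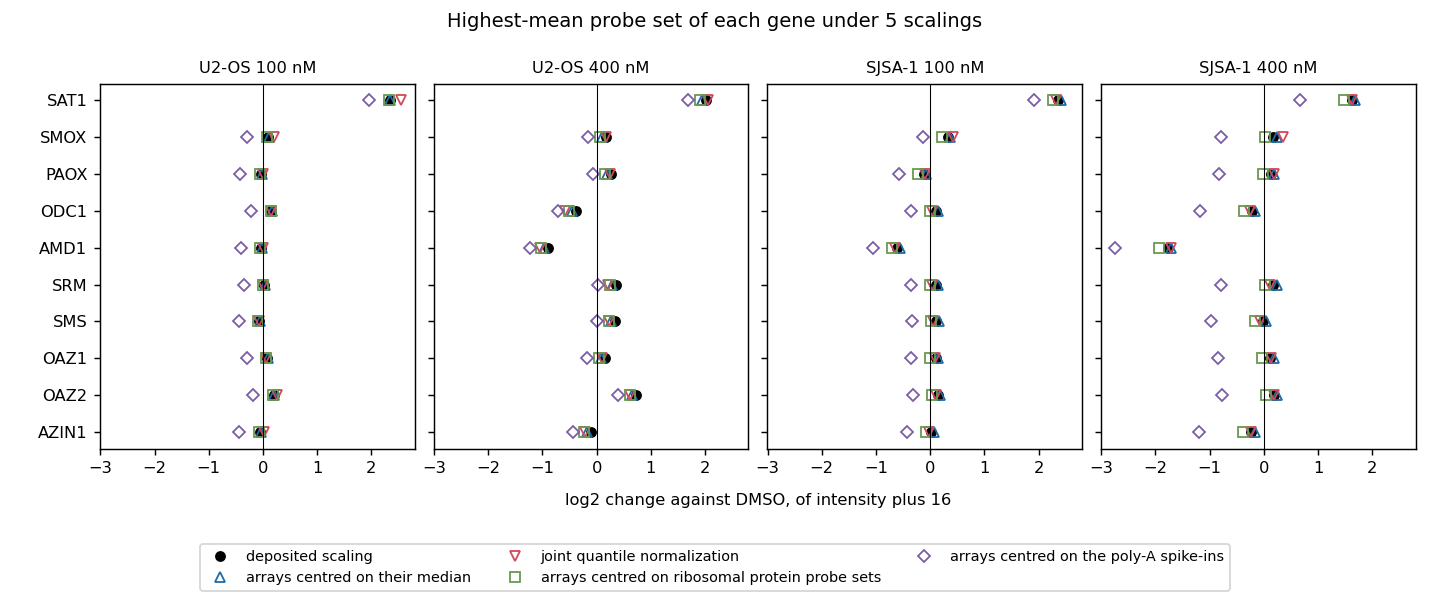
Log2 change against DMSO of the brightest probe set of each of the 10 polyamine genes at 100 and 400 nM in both lines, under 5 ways of scaling the arrays; SAT1 is shown as a description. SAT1 stays above 0 and AMD1 at 400 nM below 0 under every scaling drawn, whereas OAZ1 and SMOX in SJSA-1 lie above 0 as deposited and below 0 with arrays centred on the spike-ins.

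Beyond the members, 32 further genes of polyamine supply, transport and use were listed, of which 28 were tested, each by its brightest probe set. In U2-OS 0 passed at 25 nM (0.068% of all genes passed), 4 rose and 8 fell at 100 nM (39.7%), and 14 rose and 7 fell at 400 nM (72.5%). In SJSA-1 0 passed at 25 nM (7.47%), 9 rose and 6 fell at 100 nM (48.1%), and 17 rose and 6 fell at 400 nM (64.9%). The share called was near the background at 100 and 400 nM in U2-OS and at 100 nM in SJSA-1, and above it at 400 nM in SJSA-1. Fitted with 1 probe set per gene, 6725 of all genes rose and 4019 fell at 400 nM in SJSA-1, against 18 and 6 of the list. With the spike-in scaling the rises and falls became 0 and 7 at 100 nM and 1 and 6 at 400 nM in U2-OS, and 0 and 7 at 100 nM and 0 and 22 at 400 nM in SJSA-1. Over all tested probe sets this scaling gave 79 and 5152, 851 and 5744, 129 and 7907, and 11 and 34716 in the same order. The rises at 400 nM in SJSA-1 thus turned to falls together with most of the array. With the ribosomal scaling the rises and falls of the list were 2 and 7 at 100 nM and 6 and 6 at 400 nM in SJSA-1. Over all tested probe sets they were 3950 and 10468, and 3997 and 12220.

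MAT2A, which makes the S-adenosylmethionine that AMD1 decarboxylates, had the largest fall of the list in SJSA-1. Its intensity was 2084 ± 7.67 with DMSO, 937 ± 45.3 at 100 nM and 625 ± 56.1 at 400 nM in U2-OS, and 1978 ± 156, 425 ± 71.7 and 227 ± 42.0 in SJSA-1 (SD, n = 3). The MAT2A changes were -1.14 and -1.72 in U2-OS and -2.19 and -3.05 in SJSA-1, each with a SE of 0.10. SLC7A1, an importer of arginine, fell by -1.02 at 100 nM and -0.70 at 400 nM in U2-OS and by -1.03 at 100 nM in SJSA-1. Of the 2 listed regulators of SAT1 transcription, NFE2L2 fell by -1.19 and -2.04 in U2-OS and by -0.57 and -1.76 in SJSA-1, and PMF1, named here after its values were seen, rose by 0.36 at 400 nM in U2-OS and by 0.28 and 0.45 in SJSA-1. The PMF1 rises became 0.03, -0.17 and -0.52 with the spike-in scaling and did not pass. With 24 spike-in probe sets PMF1 passed as a fall at 400 nM in SJSA-1 (-0.63). With the ribosomal scaling it was 0.24 at 400 nM in U2-OS and 0.18 at 100 nM in SJSA-1, neither of which passed. Its 0.30 at 400 nM in SJSA-1 did pass. The PMF1 rise at 100 nM in SJSA-1 was also lost without DMSO replicate 1 (0.19) or 2 (0.28), or without replicate 1 (0.25) or 2 (0.28) of that dose. DOHH, the hydroxylase that completes hypusine on eIF5A with spermidine as the source, fell by -0.58 and -1.16 in SJSA-1.

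Rises in the wider list were smaller. OAT, the aminotransferase that links ornithine to proline and glutamate, rose by 0.62 and 0.82 at 100 and 400 nM in U2-OS and by 0.56 and 0.51 in SJSA-1, of which the SJSA-1 value at 400 nM became -0.45 with the spike-in scaling. ARG2, the mitochondrial arginase that yields ornithine, rose by 0.42 and 1.10 in U2-OS, the former becoming -0.07 with 24 spike-in probe sets. EIF5A2, a substrate of hypusine formation, rose by 1.0 at 400 nM in U2-OS. SLC18B1, a vesicular polyamine transporter, rose by 0.50 and 0.79 in SJSA-1, and OAZ3, the testis antizyme, by 0.30 and 0.46, and at 400 nM both turned with the spike-in scaling, to -0.17 and -0.50. ADI1 of methylthioadenosine salvage rose by 0.37 at 100 nM in U2-OS, and lay at -0.01 with the spike-in scaling.

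**Figure D5:**
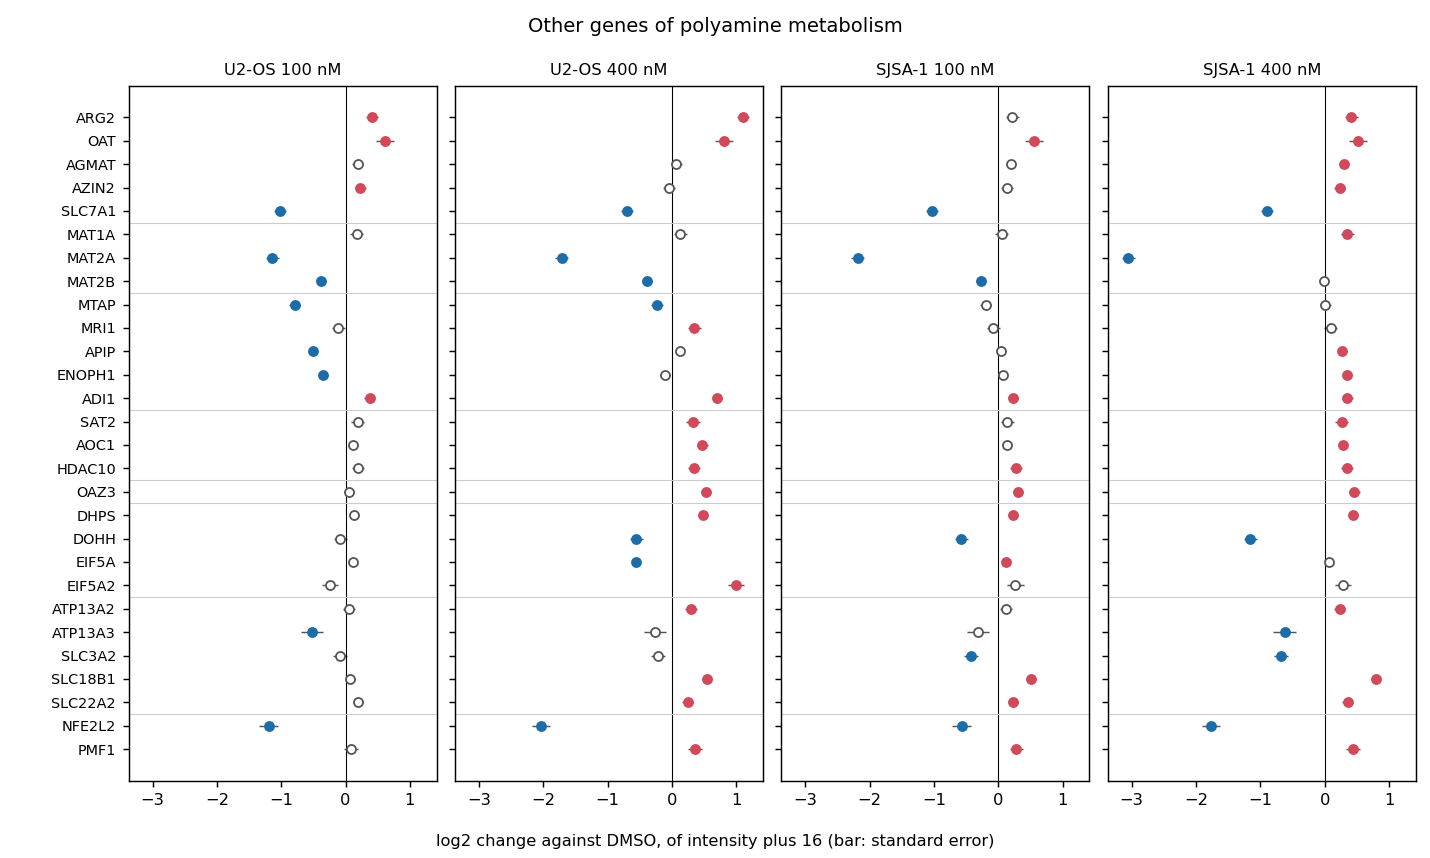
Log2 change against DMSO of the 28 tested genes of the wider polyamine list at 100 and 400 nM in U2-OS and SJSA-1, each by its brightest probe set; filled points passed limma at an adjusted p under 0.05. MAT2A lies lowest in both SJSA-1 panels (-2.19 and -3.05) and NFE2L2 in both U2-OS panels (-1.19 and -2.04).

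The genes whose 6 changes against DMSO lay nearest to those of SAT1 were found by the root mean square difference over these 6 changes, among 16172 genes. They were C11orf96 (0.45), SNORA65 (0.65), CCL20 (0.66), ING3 (0.74), SNORA84 (0.75) and ARC (0.77). C11orf96 had changes of 0.34, 2.38 and 1.26 in U2-OS and 0.79, 2.9 and 1.23 in SJSA-1 at 25, 100 and 400 nM. Like the brightest SAT1 probe set it had a higher value at 100 than at 400 nM in both lines, although the U2-OS arrays at 400 nM were normalized apart. C11orf96 was picked by these same changes, so the likeness is no separate result. Over the 3 U2-OS changes alone the nearest were SNORA65 (0.32), CCL20 (0.32) and C11orf96 (0.46), and over the 3 SJSA-1 changes SNORA84 (0.09), RSRP1 (0.26) and H2AC17 (0.34). The 3 changes of a line share its DMSO arrays, and these distances carry no test.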

How the data were processed

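The authors deposited linear intensity values for every probe set on each array, judged from the values themselves. MAS5 and RMA are named in the submitters' processing notes. Which of them made the values, and the versions, are not given in the sources used here. Precision is limited by the 3 arrays per group. Gene names came from the platform annotation, which can be old, and probe sets naming several genes were left out. A probe set was tested if at least 1 group mean reached the 30th percentile of the deposited values, 12.7. limma 3.58.1 in R 4.3.3 was fitted to log2(intensity + 16) with 8 group means, 16 residual degrees of freedom and an intensity trend. Both lines thus shared 1 estimate of the spread, which can be too small for SJSA-1 and too large for U2-OS. The SD of log2 differences between 2 arrays of a group was 0.08 to 0.16 in U2-OS and 0.13 to 0.31 in SJSA-1. Fitting only the groups compared moved the count from 6 to 11 of 31 at 100 nM in U2-OS. At 400 nM in SJSA-1 it moved from 18 to 9. The 11 comparisons were each adjusted by Benjamini-Hochberg over all tested probe sets. SAT1 was kept in the fit and its p-values were not read. An exact permutation test of 3 against 3 arrays cannot go below 0.1. The fit was tested on simulated data.

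The members and the wider list were chosen with earlier results of these data known. All probe sets of the members are covered. From the wider list up to 3 rises and 3 falls per comparison are named, and the nearest 6 genes to SAT1, or 3 per line. Motifs, the printed windows, PMF1 and the neighbours of SAT1 were chosen after values were seen. RefSeq promoter entries were found for 7 of the 10 members. The replicate numbers were not taken to pair the arrays, although a pairing in U2-OS is not excluded. Of 18 pairs of groups' same-numbered arrays in each line, 9 in U2-OS and 7 in SJSA-1 had deviations correlated above 0.1. Alternatives were scaling, filter, pseudocount, summary per gene, trend, replicate block, arrays in the fit, and each array left out. The spike-in scaling was first computed on 24 probe sets and then taken on 12, and the first version was kept as an added alternative.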

Additional observations from a re-analysis of the deposited data

Results flagged for a closer look

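In 7 probe sets the effect of 100 nM THZ2 differed between the lines by a test of the difference itself, SJSA-1 minus U2-OS, in limma. AMD1 differed by -0.66 ± 0.18 on 11717237_s_at (adjusted p = 0.0120), by -0.58 ± 0.15 on 11747877_x_at (0.00826), by -0.57 ± 0.16 on 11747828_x_at (0.0146) and by -0.52 ± 0.15 on 11748140_s_at (0.0188). PAOX differed by -0.57 ± 0.11 on 11721408_a_at (7.90e-04) and by -0.35 ± 0.12 on 11753732_a_at (0.0496). SMOX differed by 0.29 ± 0.08 on 11741884_a_at (0.0160). None of the 7 passed when arrays were centred on the spike-ins, with 12 or with 24 probe sets. Of all tested probe sets 22 were then higher and 54 lower with 12, and 12 and 27 with 24. The lines were normalized apart, and the part of that in these differences was not tested.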

How the results depend on the processing

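The direction of the AMD1 falls at 400 nM in both lines and at 100 nM in SJSA-1 held under each of the 5 other scalings on all 6 probe sets, whereas 40 of 186 changes of single polyamine probe sets against DMSO changed sign with the spike-in scaling. Each change is relative to the bulk of probe sets on an array, the amount of spike-in RNA added to each sample is unknown, and the cause of the differences between scalings was not tested. The precision is set by the 3 arrays per group and, for PAOX 11721408_a_at and 11753581_a_at and SAT1 11760200_a_at, by signals near the filter intensity. For U2-OS at 400 nM the dose and the normalization set cannot be told apart. For SJSA-1, whose values had been rounded, repeated values cannot show whether its arrays were normalized together.

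Of the 31 tested polyamine probe sets other than those of SAT1, those passing limma against DMSO numbered 6 at 100 nM and 23 at 400 nM for U2-OS and 2, 18 and 18 at 25, 100 and 400 nM in SJSA-1. In the same order they numbered 1, 7, 0, 8 and 31 with the spike-in scaling, all of them lower than DMSO, and the same 5 counts followed from 24 spike-in probe sets, a scaling added after the data were seen. With the spike-in scaling 34716 of all 37950 tested probe sets fell at 400 nM in SJSA-1. Centring on ribosomal protein probe sets gave 3 at 100 nM in U2-OS and 11 at 400 nM in SJSA-1. Quantile normalization and the filter at the 50th percentile each gave 1 at 25 nM in SJSA-1. Of all tested probe sets 748 rose and 1627 fell with the former, and 656 rose and 1837 fell with the latter. For the 28 wider pathway genes, centring on 24 spike-in probe sets gave 7 at 100 nM in SJSA-1 and 6 at 400 nM in U2-OS, and fitting only the groups compared gave 1 in place of 0 at 25 nM and 20 in place of 12 at 100 nM in U2-OS. For the 31 probe sets, fitting only the groups compared gave 11 at 100 nM in U2-OS, 0 at 25 nM and 9 at 400 nM in SJSA-1. Over all tested probe sets this fit gave 12084 rises and 9078 falls, 298 and 749, and 9292 and 7235 in the same order. From 25 to 100 nM, 6 passed in U2-OS and 16 in SJSA-1, which became 0 and 6 with the spike-ins, 1 and 6 with 24 spike-in probe sets, and 3 and 10 with the ribosomal scaling. Fitted alone, the U2-OS step gave 15 and the SJSA-1 step from 100 to 400 nM 6 in place of 11. Of all tested probe sets 12902 rose and 9435 fell in the former, and 1305 rose and 3073 fell in the latter. The difference between the lines at 100 nM, with 7, had 0 under both spike-in scalings. With 1 value per gene for 9 genes the denominator is smaller. The brightest probe set gave 1, 7, 0, 3 and 4 against DMSO, 0, 2 and 3 for the 3 dose steps and 1 between the lines. Over all genes rises and falls against DMSO were 3201 and 3571, 7831 and 4004, 323 and 999, 3955 and 4035, and 6725 and 4019. For the 3 steps they were 4015 and 3742, 3007 and 3720, and 2399 and 1879, and between the lines 1147 and 1560. Averaging the probe sets within each gene gave 1, 7, 1, 4 and 5, then 2, 4 and 3, then 2. Rises and falls of all genes against DMSO were 3727 and 3339, 8011 and 3687, 250 and 997, 4562 and 3831, and 6980 and 3850. They were 4444 and 3455, 3542 and 3485, and 2394 and 1988 for the steps, and 1237 and 1639 between the lines.

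Leaving out 1 array at a time gave 0 throughout for U2-OS at 25 nM and for the difference between the lines at that dose, 3 to 5 at 100 nM and 21 to 23 at 400 nM in U2-OS, and 0 to 5, 16 to 18 and 15 to 21 at 25, 100 and 400 nM in SJSA-1. The steps from 25 to 100 nM gave 4 to 6 in U2-OS and 10 to 16 in SJSA-1, that from 100 to 400 nM in SJSA-1 8 to 15, and the difference between the lines at 100 nM 2 to 8. The replicate numbers were not taken to pair the arrays. Of 18 same-numbered pairs of arrays, 9 in U2-OS and 7 in SJSA-1 had deviations correlated above 0.1. In U2-OS 9 of 12 arrays correlated best with their own number, with a mean correlation of 0.10 for same-numbered pairs and -0.05 for others. In SJSA-1 these were 5 of 12, 0.02 and -0.01. A pairing in U2-OS is thus not excluded. A fit with the replicate block gave 0, 6 and 23 at 25, 100 and 400 nM for U2-OS, 3, 19 and 18 at these doses for SJSA-1, 6 and 17 for the steps from 25 to 100 nM, 11 for the step from 100 to 400 nM, and 0 and 6 for the differences between the lines at 25 and 100 nM. Over all tested probe sets the block gave rises and falls of 8 and 11, 6853 and 7242, and 18432 and 8675 in U2-OS. In SJSA-1 they were 710 and 1959, 9750 and 8597, and 13852 and 8940. The steps gave 8086 and 7551, 7971 and 7753, and 4351 and 4899, and the differences 78 and 211, and 2777 and 3339.

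Of 186 changes against DMSO of single polyamine probe sets, none changed sign under centring on the median, either filter, either pseudocount, a fit without a trend, the replicate block, only the groups compared or the leaving out of an array. A change of sign was counted where at least 1 of the fits called it. Under the 4 remaining scalings the values that changed sign were as follows, 1 per probe set.

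Centred on the spike-ins, U2-OS at 100 nM had SAT1 11760200_a_at at -0.27, OAZ1 at -0.15 and -0.20, OAZ2 at -0.18, SMOX at -0.17, PAOX at -0.21, and ADI1 at -0.0056. At 400 nM, U2-OS had OAZ1 at -0.16, -0.16, -0.17 and -0.078, AZIN1 at -0.024, and PAOX at -0.063 and -0.21. In SJSA-1 the turned values at 100 nM were OAZ1 at -0.12, -0.16, -0.059, -0.30, -0.35 and -0.34, SMOX at -0.13, -0.066, -0.067 and -0.14, OAZ3 at -0.15, and PMF1 at -0.17. In SJSA-1 those at 400 nM were OAZ1 at -0.71, -0.77, -0.73, -0.83, -0.84 and -0.84, OAZ2 at -0.92 and -0.77, SRM at -0.79 and -0.81, SMS at -0.94, SMOX at -0.79, -0.81, -0.67 and -0.65, PAOX at -0.83, -0.88 and -0.79, OAT at -0.45, OAZ3 at -0.50, SLC18B1 at -0.17, and PMF1 at -0.52.

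With 24 spike-in probe sets, U2-OS at 100 nM had SAT1 11760200_a_at at -0.38, OAZ1 at -0.26 and -0.31, OAZ2 at -0.29, SMOX at -0.28, PAOX at -0.32, ADI1 at -0.11, and ARG2 at -0.072. U2-OS at 400 nM had OAZ1 at -0.23, -0.23, -0.24 and -0.15, AZIN1 at -0.093, SRM at -0.036 and -0.051, SMS at -0.055, PAOX at -0.0070, -0.13 and -0.27, and PMF1 at -0.044. SJSA-1 at 100 nM had SAT1 11760200_a_at at -0.020, OAZ1 at -0.20, -0.24, -0.14, -0.38, -0.43 and -0.42, SMOX at -0.21, -0.14, -0.15 and -0.22, OAZ3 at -0.23, SLC18B1 at -0.030, and PMF1 at -0.25. SJSA-1 at 400 nM had SAT1 11763704_a_at at -0.063, OAZ1 at -0.82, -0.88, -0.84, -0.94, -0.95 and -0.95, OAZ2 at -1.03 and -0.88, SRM at -0.90 and -0.92, SMS at -1.05, SMOX at -0.90, -0.92, -0.78 and -0.75, PAOX at -0.94, -0.99 and -0.90, OAT at -0.56, OAZ3 at -0.61, SLC18B1 at -0.28, and PMF1 at -0.63.

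The ribosomal scaling turned 3 probe sets, and SJSA-1 at 400 nM had OAZ1 at -0.017, -0.027 and -0.027. Quantile normalization turned 2 others, and U2-OS at 400 nM had OAZ1 at -0.14, and PAOX at -0.0022.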

Other observations

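SAT1 lies on the X chromosome, and of the 6 genes nearest to it in the RefSeq order, chosen after their values were seen, 4 were tested. PTCHD1, PRDX4 and ACOT9 lie before it and APOO after it, and LOC127933115 and CXorf58, also after it, were not tested. Over the 6 comparisons with DMSO the changes of the 4 ranged from -0.15 to 0.49. PRDX4, a peroxiredoxin of the endoplasmic reticulum, rose by 0.49 at 400 nM in U2-OS, and APOO, a protein of mitochondrial cristae junctions, rose by 0.47 at 400 nM in SJSA-1. ACOT9, an acyl-CoA thioesterase, rose by 0.36 at 100 nM in U2-OS and did not pass in the other 5 comparisons.

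One further probe set, 11755126_s_at, was annotated to both AMD1 and AMD1P3, a processed copy of AMD1, and was left out for naming 2 genes. Its mean intensity was 192 ± 22.1 with DMSO, 216 ± 11.02 at 25 nM, 218 ± 13.2 at 100 nM and 147 ± 11.8 at 400 nM in U2-OS (SD, n = 3). In SJSA-1 it was 143 ± 43.1, 173 ± 6.27, 114 ± 11.4 and 51.6 ± 6.89.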
